A study of Mus musculus with 12 samples.

Results

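The 40 genes described here encode proteins of apoptosis and autophagy: 25 that promote, carry out or restrain cell death and 15 that build the autophagosome or load it. The rule that defines them names gene symbols and also asks for a detected probe, and the list was drawn up with earlier results of these data known. That all 40 passed the detection filter, out of 19824 genes tested, follows from this rule and is not a finding. Their RNA was measured in whole lung of 12 mice on single-colour Agilent arrays, 1 array per mouse. There were 3 groups of 4 mice: wild type (WT) kept in room air, WT given cigarette smoke, and Rora mutants given the same smoke. Per the labels, every mouse had the C57Bl/6 background, was male and was 12 weeks old, and smoke was given for 4 months on 5 days a week. A span of 4 months is longer than 12 weeks, so the stated age cannot be that at the end of the exposure. The labels do not say which Rora allele the mutants carried, and mutants in room air were not analysed here, so genotype and its interaction with smoke cannot be told apart. The study design places smoke against room air and the mutant against the WT in smoke.

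Apoptosis through mitochondria is set by the BCL2 family. BCL2, BCL-XL (Bcl2l1), BCL-W (Bcl2l2) and MCL1 guard the outer mitochondrial membrane, BH3-only proteins antagonise them, and effectors such as BAK (Bak1) open the membrane. Released cytochrome c (Cycs) then assembles APAF1 and caspase 9, which activates executioner caspases. Autophagy starts with the ULK kinases and the beclin complex, and conjugates ATG8 proteins of the LC3 and GABARAP families to a growing membrane that takes up cargo bound by receptors such as p62 (Sqstm1). Both processes are long-standing subjects of research on smoke-exposed lung, in airway epithelium and in macrophages.

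The arrays were close to each other in detection and correlation, but less so in brightness. Between 70.1% and 74.8% of the spots of an array were well above background, and 2 arrays within a group had r between 0.9941 and 0.9967 across genes. The 75th percentile of intensity ran from 785 on WT smoke array 4 to 1313 on WT smoke array 2. WT smoke array 4 also had the lowest share of spots well above background. The number of arrays limits the precision. Lung markers (Sftpc, Scgb1a1, Ager, Foxj1 and Pecam1) were well above background on all 12 arrays. Rora read 1.10 ± 0.04 (SD, n = 4) in room air, 1.18 ± 0.04 in WT smoke and -1.01 ± 0.10 in the mutants, on a scale of log2 units over the 75th percentile of each array that is used for every level below. Although all mice were labelled male, Xist stood at 4.04 ± 0.07 in room air against -5.39 ± 2.09 in WT smoke and -4.61 ± 1.26 in the mutants. Among Y-linked genes, Uty, Kdm5d and Ddx3y exceeded background clearly on 4 of 4 arrays in either smoke group but on 0 of 4 in room air, and Eif2s3y on 4 of 4 in either smoke group and 2 of 4 in room air. Smoke exposure and this sex-linked difference therefore cannot be told apart in either comparison with room air. They do not divide the comparison of both smoke groups. Both comparisons with room air use the same room-air arrays, and both that involve WT smoke use the same WT smoke arrays, so their values are given side by side and not as independent evidence.

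Few of the 40 genes passed the test, and all differences were small by the brightest probe, which stood for each gene. The test was limma's, two-sided, with p-values adjusted by Benjamini-Hochberg over the 19824 genes and a threshold of 0.05. In WT smoke against room air, 2 rose (Gabarapl1 and Bnip3) and 0 fell, which is 5% of the members beside 4.86% of all genes (2.31% rose and 2.55% fell). In mutant smoke against WT smoke, 0 rose and 1 fell (Casp12), or 2.5% beside 6.04% (3.56% of all genes fell). In mutant smoke against room air, 3 rose (Bnip3, Gabarapl1 and Casp9) and 1 fell (Bcl2), or 10% beside 16.7% (6.67% of all genes rose and 10% fell). These shares are close to or below those of all genes. Scaling each array to its median, which moved calls towards higher, turned this for the last comparison, where 35% of the members (13 higher and 1 lower) passed beside 23% of all genes. At an unadjusted p under 0.05 there were 7, 4 and 13 members in the same order, beside 18.3%, 21.2% and 30.8% of all genes.

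By these brightest probes, the differences of the members were bounded as well as small. Other probes could differ more: a dim Cflar probe, described below, differed by 0.56 log2 units in WT smoke against room air. The 95% interval lay within a 1.5-fold change either way for 40 of 40 members in smoke against room air and for 40 of 40 in mutant against WT smoke, beside 84.1% and 82.4% of all genes. In mutant smoke against room air it did so for 39 of 40, beside 78.3% of all genes, and Bcl2 was the exception. Median differences were 0.02, 0.04 and 0.06 log2 units, beside -0.01, 0.00 and -0.01 over all genes, and 26 of 40 members (65%) were positive in each of the 3 comparisons, beside 46.8%, 50.6% and 48.5% of all genes. Members varied little between mice of a group: the median SD within a group was 0.0938 log2 units, from 0.0227 to 0.205, beside 0.124 over all genes. The groups did not overlap for 4 members (10%) in smoke against room air, 4 (10%) in mutant against WT smoke and 7 (17.5%) in mutant smoke against room air, beside 12.9%, 13.4% and 21% of all genes.

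**Figure D1:**
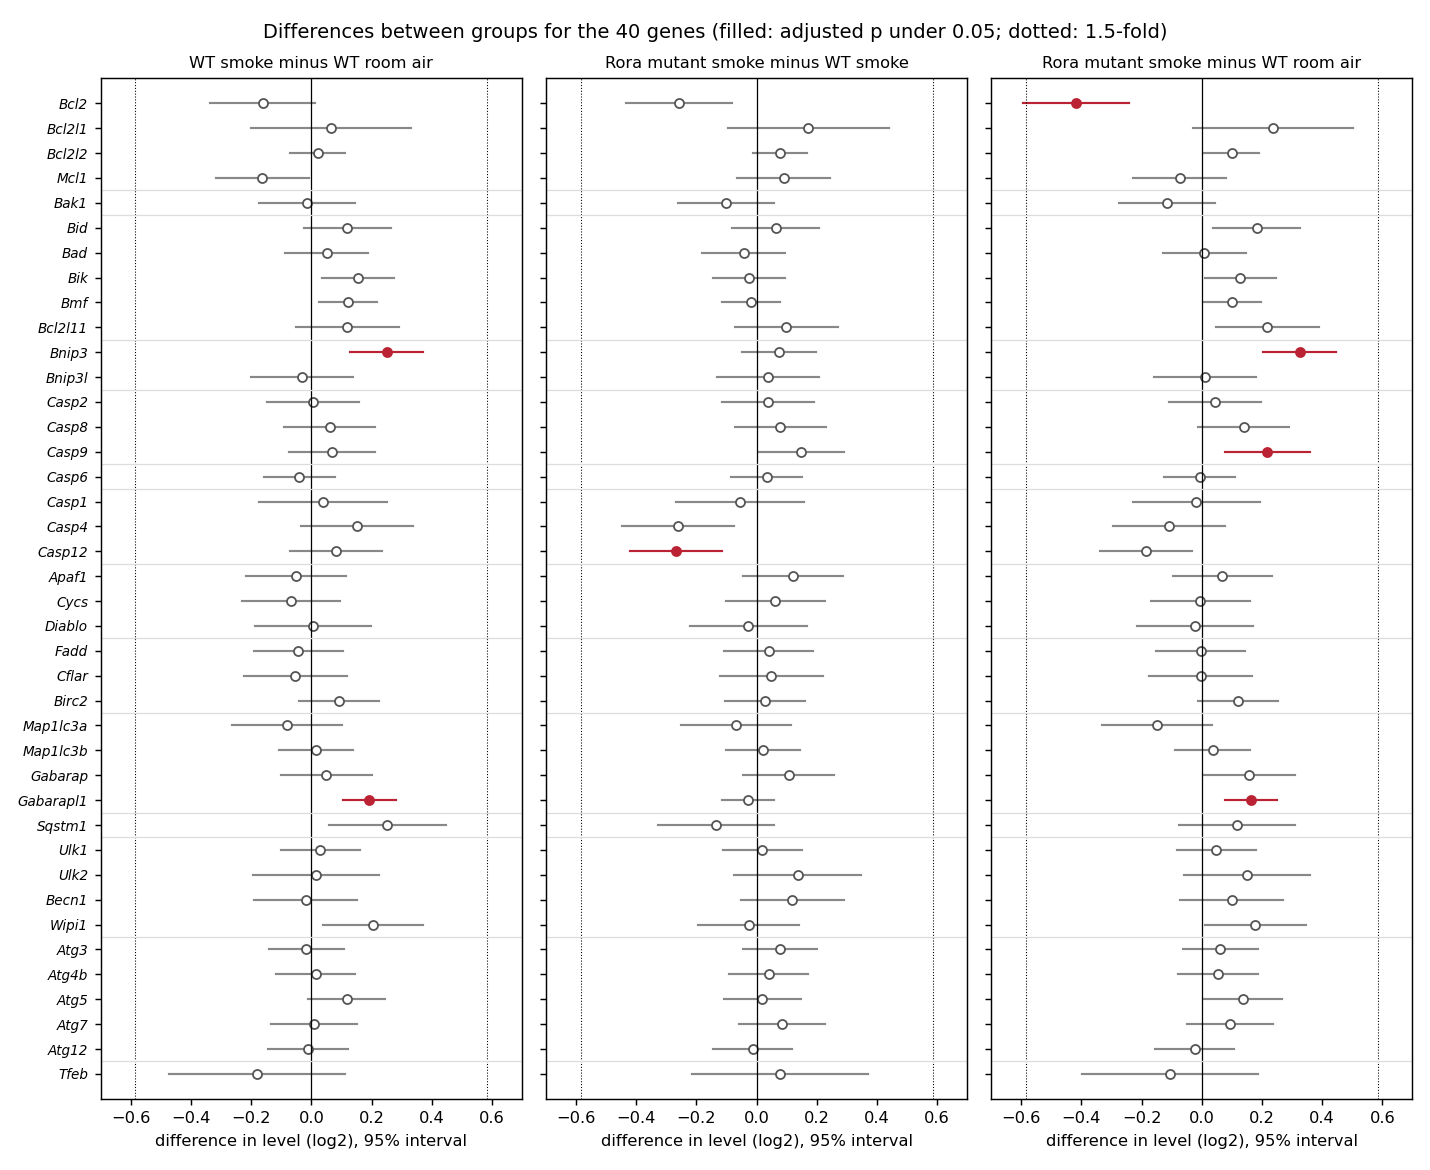
Differences in level (log2, x axis) of the 40 genes in the 3 comparisons, with points for the fitted difference, bars for its 95% interval, filled points for an adjusted p under 0.05 and dotted lines at 1.5-fold. Filled points are Gabarapl1 and Bnip3 in smoke against room air, Casp12 in mutant against WT smoke, and Bnip3, Bcl2, Gabarapl1 and Casp9 in mutant smoke against room air, and the interval of Bcl2 is the only one to cross a dotted line.

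The sequences upstream of the genes that passed are shown because Rora encodes a nuclear receptor that binds DNA at ROR elements, and because the promoter is the stretch of DNA from which these RNAs start. RefSeq promoter windows on GRCm38.p6 were found for 35 of the 40 genes (45 windows of 250 bases). For Bik, Map1lc3a, Atg12, Bnip3l and Becn1 none was printed or searched. The windows below run 5′ to 3′ on the strand of the gene and end at the base before the transcript start. Capitals mark a CACGTG E-box or a TGACNNNGC antioxidant response element core. Gabarapl1 is at chr6:129532942-129533191 on the plus strand, Bnip3 at chr7:138909507-138909756 on the minus strand, Bcl2 at chr1:106714291-106714540 on the minus strand, Casp12 at chr9:5345226-5345475 on the plus strand and Casp9 at chr4:141793362-141793611 on the plus strand.
Gabarapl1: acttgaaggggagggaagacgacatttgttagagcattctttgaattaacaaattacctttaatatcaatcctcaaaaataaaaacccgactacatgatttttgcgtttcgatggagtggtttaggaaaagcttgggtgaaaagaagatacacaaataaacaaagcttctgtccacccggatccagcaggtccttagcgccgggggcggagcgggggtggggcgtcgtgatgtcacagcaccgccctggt
Bnip3: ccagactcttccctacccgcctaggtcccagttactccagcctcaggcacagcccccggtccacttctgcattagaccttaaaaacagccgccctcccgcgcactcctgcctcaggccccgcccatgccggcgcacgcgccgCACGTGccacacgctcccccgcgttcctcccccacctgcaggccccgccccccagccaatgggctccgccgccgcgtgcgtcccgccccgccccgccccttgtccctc
Bcl2: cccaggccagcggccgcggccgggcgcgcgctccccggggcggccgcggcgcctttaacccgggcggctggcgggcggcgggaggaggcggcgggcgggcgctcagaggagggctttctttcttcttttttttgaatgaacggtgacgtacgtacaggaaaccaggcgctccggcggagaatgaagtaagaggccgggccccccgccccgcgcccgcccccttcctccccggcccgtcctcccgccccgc
Casp12: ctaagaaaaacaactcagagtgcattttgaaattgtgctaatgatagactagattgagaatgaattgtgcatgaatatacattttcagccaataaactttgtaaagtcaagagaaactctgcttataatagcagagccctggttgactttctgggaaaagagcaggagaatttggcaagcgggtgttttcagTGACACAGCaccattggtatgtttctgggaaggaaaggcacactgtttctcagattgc
Casp9: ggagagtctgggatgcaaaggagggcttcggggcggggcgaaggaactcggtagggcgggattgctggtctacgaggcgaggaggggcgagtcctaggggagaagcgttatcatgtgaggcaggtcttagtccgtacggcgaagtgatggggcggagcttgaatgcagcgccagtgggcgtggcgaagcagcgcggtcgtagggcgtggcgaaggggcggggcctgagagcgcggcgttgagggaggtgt

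Each motif was searched on both strands in all 32851 promoter windows of the table. The ROR element TAGGTCA was present in 0 of the 45 member windows, beside 2.23% of all windows, and TGGGTCA in 2 (Bad and Bcl2l1), beside 3.24%. Neither run of letters was in the 5 windows printed above. The antioxidant response element core TGACNNNGC was found in 3 member windows (Bcl2l1, Casp12 and Ulk2), or 6.67% beside 10.2% of all windows. In Casp12 it ran from 58 to 50 bases upstream of the start. CACGTG, the E-box bound by clock proteins and by TFEB-family factors, was in 5 member windows (Atg3, Atg5, Atg7, Bnip3 and Casp1), or 11.1% beside 6.02% of all windows, and in Bnip3 it lay 108 to 103 bases upstream. The hypoxia response element core ACGTG overlaps every CACGTG and was in 10 member windows, or 22.2% beside 16.6%. The member windows were richer in G and C, with a median of 61.2% beside 52.4% for all windows, and no test was made of these shares. A match is only a run of letters and does not show binding.

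Among the autophagy genes, Gabarapl1 and Sqstm1 had the smallest unadjusted limma p in WT smoke against room air (0.00047 and 0.0151). Wipi1, of the initiation group, followed closely at 0.0203. Of these genes only Gabarapl1 passed the test. Gabarapl1, an ATG8 protein of the GABARAP family, read 6.31, 6.26, 6.25 and 6.25 on room-air arrays 1 to 4, 6.45, 6.45, 6.47 and 6.46 on WT smoke arrays 1 to 4, and 6.40, 6.44, 6.41 and 6.46 on mutant smoke arrays 1 to 4. Every smoke-exposed array of either genotype lay above every room-air array, and the mutant and WT smoke arrays overlapped. Gabarapl1 rose by 0.19 ± 0.04 log2 units (SE, limma adjusted p = 0.0198) in WT smoke and by 0.16 ± 0.04 (adjusted p = 0.0168) in mutant smoke against room air. Between mutant and WT smoke the difference was -0.03 log2 units, with a 95% interval from -0.116 to 0.059. The probe lies at chr6:129507929-129507988 on mm8, the build of the array files. Within the 3 slides, each of which held all groups, the WT smoke difference was 0.171, 0.199 and 0.219, and a fit that blocked on slide gave an adjusted p of 0.0439. In the mutants the slides gave 0.125, 0.183 and 0.187, with a blocked adjusted p of 0.0341.

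A second, dimmer Gabarapl1 probe gave 0.13 (adjusted p = 0.664 over all 30191 probes) in WT smoke and 0.20 (adjusted p = 0.294) in mutant smoke against room air. It had the same sign but wider errors, and the mean of both probes did not pass (adjusted p = 0.238 and 0.0972). Leaving out room-air array 2, 3 or 4 or WT smoke array 3 ended the call in WT smoke, with adjusted p over all single arrays left out between 0.0237 and 0.0568. With a normexp background correction the differences were 0.27 (adjusted p = 0.639) and 0.11 (adjusted p = 0.940), and no member passed in any comparison.

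Bnip3, a mitochondrial outer membrane protein related to the BH3-only group that serves as a mitophagy receptor and is a classic hypoxia-induced gene, was the other member higher in both smoke groups. It read 2.10, 2.10, 2.03 and 2.10 on the room-air arrays, 2.32, 2.30, 2.44 and 2.25 on the WT smoke arrays, and 2.39, 2.45, 2.31 and 2.47 on the mutant smoke arrays. All 8 smoke-exposed arrays lay above all 4 room-air arrays, and the smoke groups overlapped. Bnip3 rose by 0.25 ± 0.06 (SE, limma adjusted p = 0.0278) in WT smoke and by 0.32 ± 0.06 (adjusted p = 0.00271) in mutant smoke. The mutant minus WT smoke difference was 0.07, with an interval from -0.048 to 0.197. Its only probe lies at chr7:138729737-138729796 on mm8. Within slides the WT smoke difference was 0.223, 0.182 and 0.417 and the blocked adjusted p was 0.0573; the mutant differences were 0.295, 0.352 and 0.363, with a blocked adjusted p of 0.00867. The call in WT smoke was lost without any 1 of the 4 room-air arrays or of WT smoke arrays 1 to 3 (adjusted p from 0.0226 to 0.0743 over all 12 single arrays), whereas the call in mutant smoke held without each array in turn. The relative Bnip3l, which encodes the mitophagy receptor NIX, differed from room air by -0.03 in WT smoke and 0.01 in mutant smoke by its brightest probe. A second, dimmer Bnip3l probe differed by 0.04 and 0.28, and neither probe passed.

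Sqstm1, which encodes p62, a cargo receptor that binds ubiquitin and LC3 and is a known NRF2 target, had the third smallest p in WT smoke. It read 5.96, 5.75, 5.78 and 5.88 in room air, 6.02, 6.06, 6.06 and 6.24 in WT smoke, and 6.18, 6.00, 5.79 and 5.87 in the mutants. The WT smoke arrays all lay above the room-air arrays, while the mutant arrays spanned nearly the range of both groups. The difference in WT smoke was 0.25 ± 0.09 (SE, limma adjusted p = 0.141), and in mutant smoke against room air it was 0.12 ± 0.09 (adjusted p = 0.408). Neither passed the test, and the interval in WT smoke ran from 0.0588 to 0.446 log2 units. The highest WT smoke array, number 4, stood apart from the other 3.

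**Figure D2:**
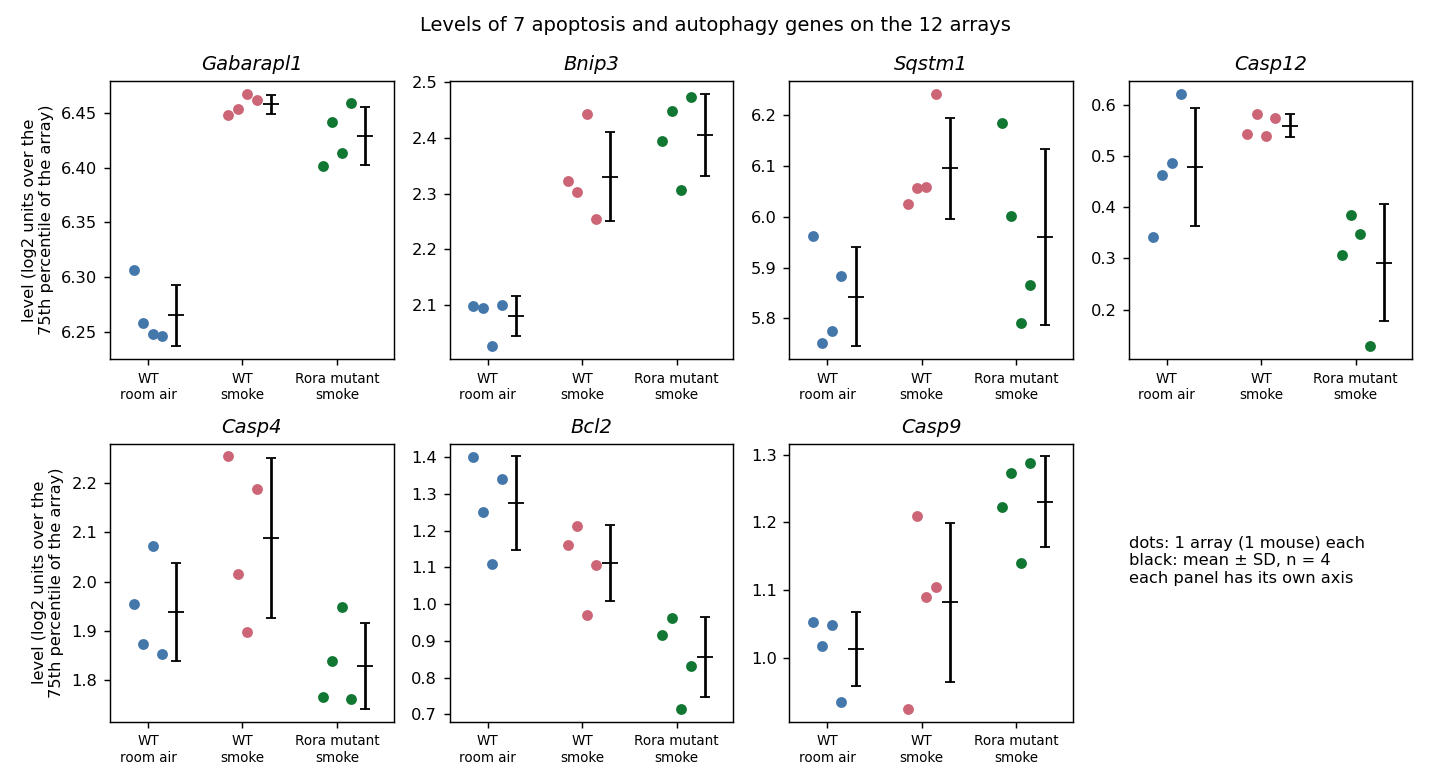
Levels (log2 units over the 75th percentile of the array, y axis, a separate axis per gene) of 7 genes on the 12 arrays, with 1 dot per mouse and black marks for the mean ± SD of 4. Gabarapl1 and Bnip3 are higher on every smoke-exposed array than on every room-air array, Casp12 and Bcl2 are lower on every mutant array than on every WT smoke array, and Casp9 in mutant smoke lies above room air.

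The other autophagy genes gave no further calls by their brightest probes. Of the 15, 1 rose and 0 fell in each comparison with room air (6.67%), beside 4.86% of all genes in WT smoke and 16.7% in mutant smoke. Between mutant and WT smoke 0 rose or fell, beside 6.04% of all genes. In that comparison 0 of 15 had an unadjusted limma p under 0.05, beside 21.2% of all genes. Among the ATG8 proteins, Map1lc3b, whose lipidated product marks autophagosomes, differed from room air by 0.01 in WT smoke and 0.04 in mutant smoke. Map1lc3a differed by -0.08 and -0.15, and Gabarap by 0.05 and 0.16 (adjusted p = 0.146). The ATG8 proteins thus ran from -0.15 to 0.16 log2 units in the mutants, with Gabarapl1 alone past the test.

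In the initiation group, Wipi1, which binds the phosphoinositide made by the beclin complex, differed from room air by 0.20 ± 0.08 (SE, limma adjusted p = 0.167) in WT smoke and 0.18 ± 0.08 (adjusted p = 0.137) in mutant smoke. Its room-air array 1 read 1.29, above the 1.10 to 1.12 of the other 3, and the groups overlapped. The kinases Ulk1 and Ulk2 differed by 0.03 and 0.01 in WT smoke and by 0.05 and 0.15 in mutant smoke. Becn1, the scaffold of the lipid kinase complex, differed by -0.02 and 0.10.

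The genes of the conjugation machinery were also close to room air by their brightest probes. A dimmer Atg7 probe, described below, passed in mutant smoke. Atg5 differed by 0.12 in WT smoke and 0.14 (adjusted p = 0.137) in mutant smoke. Atg3, Atg4b, Atg7 and Atg12 lay between -0.02 and 0.01 in WT smoke and between -0.02 and 0.09 in mutant smoke. These encode an E2-like enzyme, a protease that trims ATG8, an E1-like enzyme and the ubiquitin-like partner of ATG5. Tfeb, the transcription factor of lysosomal and autophagy genes, had a low level and its widest spread in room air (-3.22, -3.28, -2.56 and -3.06), where array 3 was the highest. Its difference was -0.18 ± 0.13 in WT smoke and -0.10 ± 0.13 in mutant smoke, with no call.

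Among the apoptosis genes, Bcl2 showed the largest difference of any member. Bcl2, the founding antiapoptotic protein of its family and a survival factor of lymphocytes, read 1.40, 1.25, 1.11 and 1.34 in room air, 1.16, 1.21, 0.97 and 1.11 in WT smoke, and 0.92, 0.96, 0.71 and 0.83 in the mutants. The mutant arrays lay below all room-air and all WT smoke arrays, and the room-air and WT smoke arrays overlapped. In mutant smoke against room air Bcl2 fell by 0.42 ± 0.08 log2 units (SE, limma adjusted p = 0.00499), with an interval from -0.595 to -0.243. Against WT smoke the mutants differed by -0.26 ± 0.08 (adjusted p = 0.0861), and WT smoke differed from room air by -0.16 ± 0.08 (adjusted p = 0.317). Neither of these passed. Within slides the mutant minus room air difference was -0.455, -0.289 and -0.335, the blocked value was -0.37 (adjusted p = 0.0029), and the call held without each single array in turn. In whole lung, fewer cells of a type and less RNA per cell cannot be told apart.

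The fall of Bcl2 rested on 1 of its 3 probes. The brightest, at chr1:108539940-108539999 on mm8, is annotated in the files to transcript variant 2. A second probe, at chr1:108538280-108538339, gave -0.12 (limma adjusted p = 0.378 over all probes) in mutant smoke against room air. The third, at chr1:108365763-108365822, annotated to transcript variant 1 and printed on 10 spots, read 0.15, 0.42, 0.38 and 0.23 in room air, 0.29, 0.39, 0.29 and 0.37 in WT smoke, and 0.24, 0.32, 0.47 and 0.38 in the mutants. Its groups overlapped throughout and its difference was 0.056 (adjusted p = 0.641), of opposite sign to the brightest probe. The mean of the 3 probes differed by -0.16 (adjusted p = 0.0486). Only the brightest of the 3 probes passed the test.

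The other antiapoptotic members did not pass in any comparison. Bcl2l2 was nearly constant, at 2.43 ± 0.03 (SD, n = 4) in room air, 2.45 ± 0.02 in WT smoke and 2.53 ± 0.02 in the mutants, whose arrays lay above all others. Its difference in mutant smoke was 0.10 (limma adjusted p = 0.128) against room air and 0.08 (adjusted p = 0.306) against WT smoke. Bcl2l1 differed from room air by 0.06 in WT smoke and by 0.24 ± 0.12 (adjusted p = 0.215) in mutant smoke, with arrays that overlapped. Mcl1, a short-lived protein needed by many immune cells, differed by -0.16 (adjusted p = 0.243) and -0.07. Bak1, the effector in the list, differed by -0.01 and -0.11, and by -0.10 (adjusted p = 0.481) between mutant and WT smoke, where the arrays of the groups did not overlap.

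By their brightest probes, all 5 BH3-only genes had positive differences in both comparisons with room air. A dimmer Bcl2l11 probe was negative in WT smoke (-0.05) and in mutant smoke (-0.04), as was a dimmer Bad probe in mutant smoke (-0.05). The remaining dimmer probes were positive. Of the 5 genes, 0 passed in either comparison, beside 4.86% of all genes in WT smoke and 16.7% in mutant smoke. Over all genes, 46.8% were positive in WT smoke and 48.5% in mutant smoke against room air. In WT smoke, Bik differed by 0.15 ± 0.05 (SE, limma adjusted p = 0.144), Bmf by 0.12 ± 0.04 (adjusted p = 0.160), Bid by 0.12, Bcl2l11 by 0.12 and Bad by 0.05. Bmf read 1.81 to 1.92 in room air and 1.99 to 2.01 in WT smoke, without overlap. In mutant smoke, Bcl2l11, which encodes BIM, differed by 0.22 ± 0.08 (adjusted p = 0.0819), Bid, the substrate of caspase 8, by 0.18 ± 0.07 (adjusted p = 0.0845) without overlap, and Bad by 0.01. Scaled to the median of each array, Bid, Bcl2l11, Bik and Bmf passed in mutant smoke (0.27, 0.30, 0.21 and 0.18, limma adjusted p from 0.0175 to 0.0264), beside 23% of all genes. That scaling moved the median of all genes in this comparison to 0.08 log2 units. Bid also passed with quantile normalization (limma adjusted p = 0.0452) and in the authors' deposited table (adjusted p = 0.0482), beside 16.4% and 16.2% of all genes. Between mutant and WT smoke the 5 differences ran from -0.04 to 0.10.

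Caspase 9, the initiator caspase of the apoptosome, was higher in the mutants than in room air. Casp9 read 1.05, 1.02, 1.05 and 0.93 in room air, 0.92, 1.21, 1.09 and 1.10 in WT smoke, and 1.22, 1.27, 1.14 and 1.29 in the mutants. Mutant arrays all lay above room air, and WT smoke overlapped both groups. Casp9 rose by 0.22 ± 0.06 (SE, limma adjusted p = 0.0397) in mutant smoke against room air, while the differences were 0.15 (adjusted p = 0.212) against WT smoke and 0.07 (adjusted p = 0.647) between WT smoke and room air. Its single probe lies at chr4:141087947-141088006 on mm8. Within slides the difference was 0.230, 0.257 and 0.165, with a blocked adjusted p of 0.0607. The call was lost in 9 of the 12 refits that left out 1 array (each room-air array, mutant arrays 1, 2 and 4, WT smoke arrays 3 and 4), with adjusted p between 0.0218 and 0.103.

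The partners of caspase 9 were not among the calls. Apaf1, the apoptosome scaffold, differed from room air by -0.05 in WT smoke and 0.07 in mutant smoke. Cycs differed by -0.07 and -0.00, and Diablo, which encodes the IAP antagonist SMAC, by 0.01 and -0.02. The executioner Casp6 differed by -0.04 and -0.01. The initiators Casp8, which acts downstream of death receptors, and Casp2 differed by 0.06 and 0.01 in WT smoke and by 0.14 (adjusted p = 0.198) and 0.04 in mutant smoke.

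The caspases of the inflammatory group lie side by side on chromosome 9, and 1 of them was the only member called between the smoke groups. Casp12, a caspase associated with the endoplasmic reticulum in mouse, read 0.34, 0.46, 0.49 and 0.62 in room air, 0.54, 0.58, 0.54 and 0.58 in WT smoke, and 0.31, 0.39, 0.35 and 0.13 in the mutants. Mutant arrays lay below all WT smoke arrays and overlapped room air. Casp12 fell by 0.27 ± 0.07 log2 units (SE, limma adjusted p = 0.0454) against WT smoke, and its interval ran from -0.421 to -0.115. Against room air the mutants differed by -0.19 ± 0.07 (adjusted p = 0.0925), and WT smoke differed from room air by 0.08 (adjusted p = 0.610). Within slides the mutant minus WT smoke difference was -0.237, -0.194 and -0.301, and the blocked adjusted p was 0.0935. Leaving out room-air array 2 or 3, mutant array 1, 3 or 4 or any WT smoke array ended the call (adjusted p from 0.0367 to 0.112).

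Casp4, which in mouse encodes the caspase 11 sensor of intracellular lipopolysaccharide, had a difference of nearly the same size but a larger spread. It read 1.95, 1.87, 2.07 and 1.85 in room air, 2.25, 2.02, 1.90 and 2.19 in WT smoke, and 1.76, 1.84, 1.95 and 1.76 in the mutants. The smoke groups overlapped through WT smoke array 3 and mutant array 3. The mutant minus WT smoke difference was -0.26 ± 0.08 (SE, limma adjusted p = 0.0979), and WT smoke minus room air was 0.15 ± 0.08 (adjusted p = 0.383). Casp1, the caspase of canonical inflammasomes, differed by -0.06 between mutant and WT smoke, with arrays from 0.07 to 0.55 in WT smoke. All 3 of these caspases had a positive difference in WT smoke against room air and a negative one in mutant against WT smoke, comparisons that share the WT smoke arrays. Their probes lie at chr9:5306226-5306728 (Casp1), chr9:5336645-5336704 (Casp4) and chr9:5372258-5372317 (Casp12) on mm8. Rora is on the same chromosome, with its probe 63.8 Mb from that of Casp12.

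In the death receptor branch, the adaptor Fadd, the caspase 8 regulator Cflar (c-FLIP) and the ubiquitin ligase Birc2 (cIAP1) did not pass by their brightest probes. Fadd differed from room air by -0.04 in WT smoke and -0.00 in mutant smoke, Cflar by -0.05 and -0.00, and Birc2 by 0.09 and 0.12. Cflar had 6 probes, which did not move together. A dim probe at chr1:58661885-58661944 rose from -3.27 ± 0.09 (SD, n = 4) in room air to -2.71 ± 0.14 in WT smoke, by 0.56 ± 0.08 (SE, limma adjusted p = 0.00212 over all probes), and to -2.94 ± 0.09 in the mutants, by 0.33 ± 0.08 (adjusted p = 0.0142). Another pair of probes, which overlap each other at chr1:58698798-58698862 and chr1:58698818-58698877, fell by 0.25 and 0.27 in mutant smoke against room air (adjusted p = 0.0220 and 0.0260). The brightest probe, at chr1:58703294-58703353, gave -0.05 and -0.00.

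Probes of the same gene differed in sign in other members too. Signs were counted whether or not a probe passed, and no such count was made over all genes. Of the 25 members with several kept probes, the signs of the probes differed in 10 in WT smoke against room air, 11 in mutant against WT smoke and 10 in mutant smoke against room air. At least 1 probe passed over all probes in 2, 0 and 4 of these 25 genes. That count was not made over all genes either, and a gene with more probes has more chances to pass. Atg7 was 1 of the last 4, with probes of the same sign but unlike size. Its brightest probe differed by 0.01 and 0.09 from room air, and a second probe, at chr6:114651023-114651082, by 0.34 (limma adjusted p = 0.0596) in WT smoke and 0.41 (adjusted p = 0.0102) in mutant smoke. With the mean of the kept probes, Atg7 passed in mutant smoke against room air (0.25, limma adjusted p = 0.00932), beside 17.1% of all genes.

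**Figure D3:**
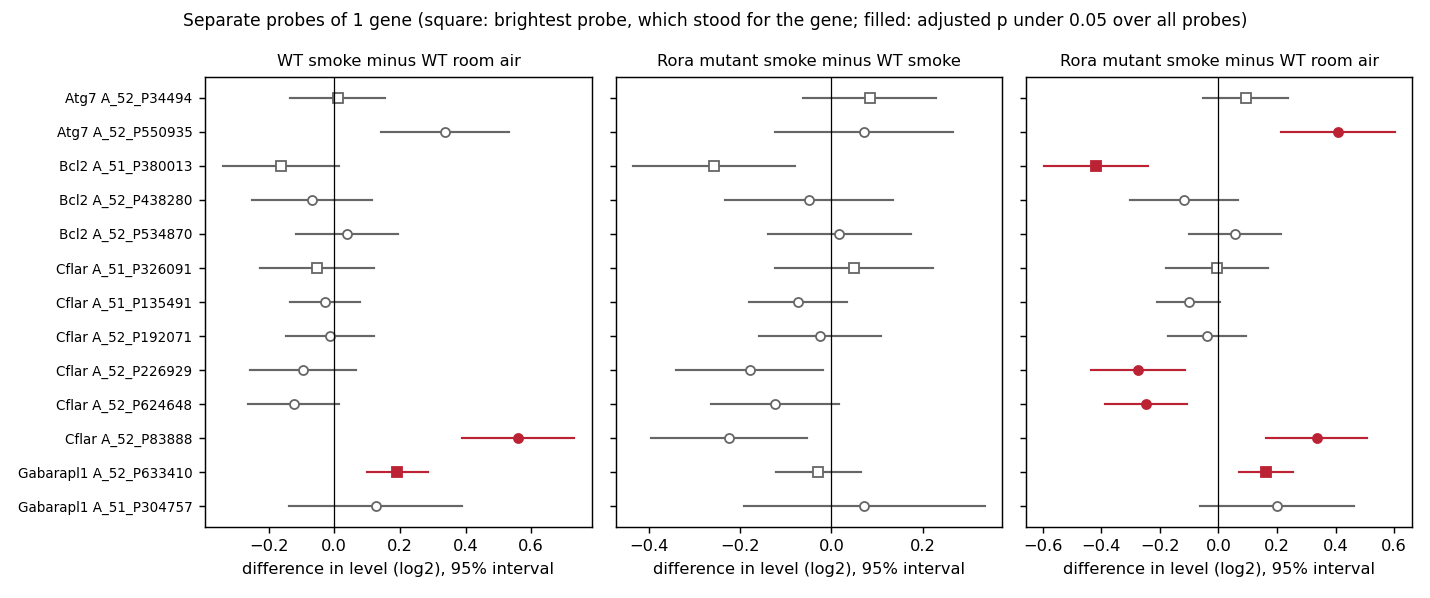
Differences in level (log2, x axis) with 95% intervals for the separate probes of Atg7, Bcl2, Cflar and Gabarapl1 in the 3 comparisons, where squares are the brightest probe of a gene and filled marks passed over all 30191 probes. The 3 Bcl2 probes range from -0.42 to 0.06 in mutant smoke against room air, and the Cflar probes called in that comparison lie on both sides of 0.

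Across the whole list, the plot of deviations by array shows which single arrays stood high or low. Tfeb on room-air array 3 lay farthest from its mean among the 40 genes. WT smoke array 4 was the highest of its group for Sqstm1, Bnip3l, Casp2 and Cflar, and WT smoke array 1 the lowest for Bcl2l1 and Casp9.

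**Figure D4:**
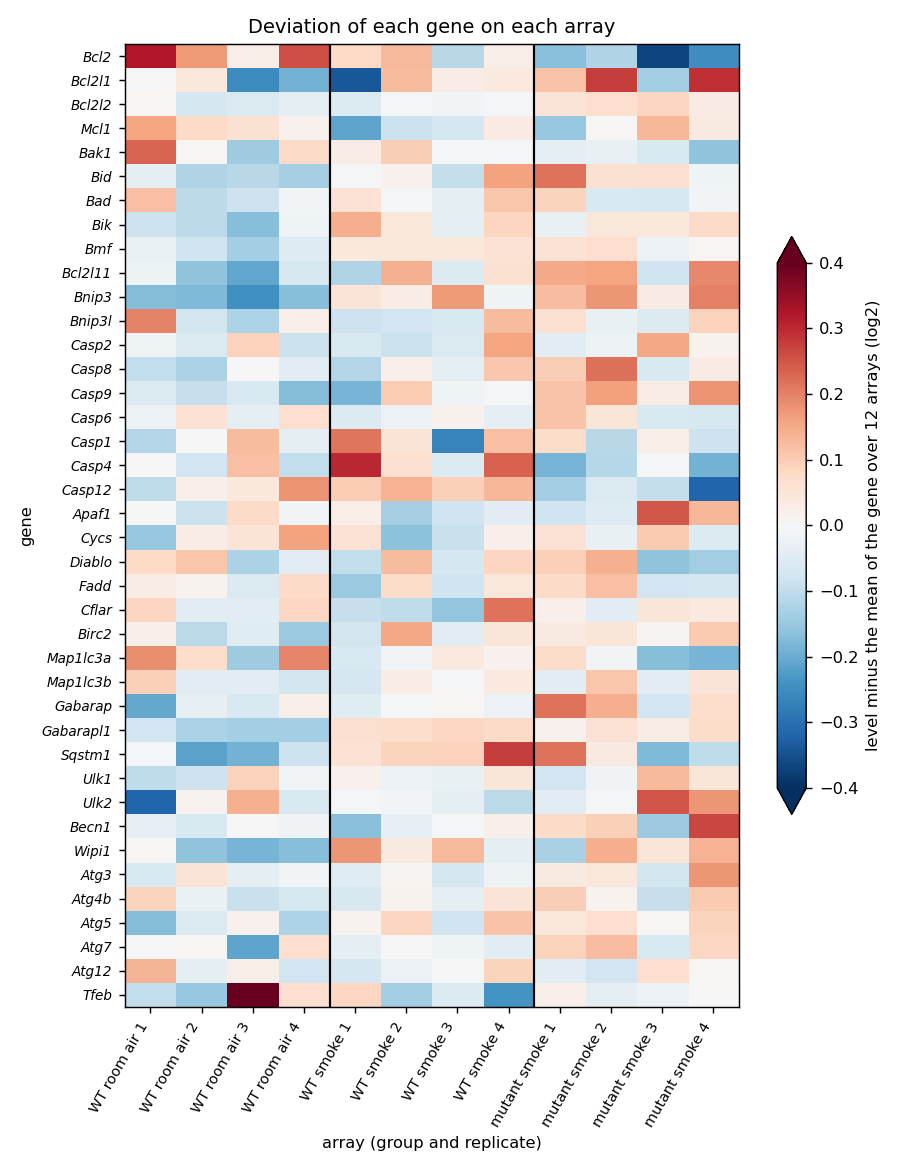
Level of each of the 40 genes (rows) on each array (columns, by group) minus the mean of that gene over the 12 arrays, in log2 units, with red above and blue below the mean. Bnip3 and Gabarapl1 are blue on the 4 room-air arrays, Bcl2 is blue on the 4 mutant arrays, and most other rows show no common colour within a group.

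Cell type markers moved with the same comparisons. Over all genes, 2.31% rose and 2.55% fell in WT smoke against room air, and 2.48% and 3.56% between mutant and WT smoke. In mutant smoke against room air these shares were 6.67% and 10%. Of 11 alveolar macrophage markers tested, 3 rose in WT smoke against room air, 6 in mutant against WT smoke and 10 in mutant smoke against room air, with 0 falling. Their summed level was 6.56 to 6.71 in room air, 6.61 to 6.77 in WT smoke and 7.05 to 7.66 in the mutants, and 0 of the 11 were below background throughout. Of 6 goblet cell markers, 6 fell in both comparisons with room air, where the summed level was 3.46 to 5.24, against 1.11 to 1.95 in WT smoke and 0.45 to 0.78 in the mutants. Of 11 T cell markers, 0 rose or fell in any comparison, with summed levels of 2.53 to 3.25 in room air, 2.25 to 2.66 in WT smoke and 2.09 to 2.82 in the mutants. The median difference of the T cell markers was -0.24 in WT smoke against room air, -0.19 in mutant against WT smoke and -0.38 in mutant smoke against room air. Of 9 B cell markers, 0 rose or fell in any comparison, and their median differences were 0.25, -0.38 and -0.10 in the same order. Other lists moved too. In mutant smoke against room air, 4 of 8 ciliated, 3 of 6 club and 3 of 9 neutrophil markers fell, and 4 of 8 erythroid markers rose. Between mutant and WT smoke, 4 of 8 skeletal muscle and 2 of 7 adipocyte markers rose, and 3 of 6 goblet markers fell. In WT smoke against room air, 3 of 8 type 2 alveolar markers fell. The part of these cell types in the differences of Bcl2, Casp12, Casp9, Bnip3 and Gabarapl1 was not tested.

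A wider list of 109 further apoptosis and autophagy genes, of which 102 were tested, shows the surroundings of the 40. In WT smoke against room air 1 rose and 2 fell (2.94%, beside 4.86% of all genes), in mutant against WT smoke 3 rose and 1 fell (3.92%, beside 6.04%), and in mutant smoke against room air 10 rose and 8 fell (17.6%, beside 16.7%). Their median differences were 0.04, 0.02 and 0.07 log2 units.

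In WT smoke, Tnfrsf25, the death receptor DR3 of lymphocytes, read 1.41, 1.42, 1.54 and 1.63 in room air and 0.40, 0.69, 0.78 and 0.58 in WT smoke, a fall of 0.89 ± 0.13 log2 units (SE, limma adjusted p = 0.00202). It was also lower in mutant smoke than in room air, by 0.88 ± 0.13. Birc5, which encodes survivin, a protein of dividing cells, fell by 0.54 ± 0.13 (adjusted p = 0.0401) in WT smoke. Birc3, the inducible NF-kB target that encodes cIAP2, rose by 0.24 ± 0.06 (adjusted p = 0.0363). For Tnfrsf25, Birc5 and Birc3, chosen by their small p, the WT smoke and room-air arrays did not overlap. The same held for 14.7% of the wider list and 12.9% of all genes. When slide was a block, Tnfrsf25 passed (adjusted p = 0.00925), whereas Birc5 (adjusted p = 0.0770) and Birc3 (adjusted p = 0.0778) did not.

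Between mutant and WT smoke, 2 death receptors rose. Tnfrsf21, which encodes DR6, read -0.57, -0.47, -0.52 and -0.62 in WT smoke and -0.14, -0.12, -0.37 and -0.15 in the mutants, a rise of 0.35 ± 0.07 (SE, limma adjusted p = 0.0138). Fas, the receptor of Fas ligand, rose from 2.10, 2.27, 2.47 and 2.33 to 2.56, 2.66, 2.53 and 2.71, by 0.33 ± 0.08 (adjusted p = 0.0369). Mitf, a relative of Tfeb, rose by 0.26 ± 0.07 (adjusted p = 0.0452), and Bok, an effector-like BCL2 family member, fell by 0.29 ± 0.07 (adjusted p = 0.0298). In each of these 4 genes the mutant arrays did not overlap the WT smoke arrays, beside 11.8% of the wider list and 13.4% of all genes. Blocking on slide gave an adjusted p of 0.0194 for Tnfrsf21, 0.0436 for Fas, 0.0103 for Bok and 0.0925 for Mitf, so that the call on Mitf was lost.

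Mutant smoke against room air added Lamp2, a lysosomal membrane protein, which rose by 0.21 ± 0.05 (SE, limma adjusted p = 0.0144). Calcoco2, the mouse counterpart of the cargo receptor NDP52, fell by 0.50 ± 0.12 (adjusted p = 0.0144). Endog, a mitochondrial nuclease, fell by 0.34 ± 0.06 (adjusted p = 0.00207), and Zkscan3, a zinc finger gene described in human cells as a repressor of autophagy genes, fell by 0.26 ± 0.05 (adjusted p = 0.00362). Bok fell by 0.38 ± 0.07 (adjusted p = 0.00365) and Fas rose by 0.33 ± 0.08 (adjusted p = 0.0163) in this comparison too.

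**Figure D5:**
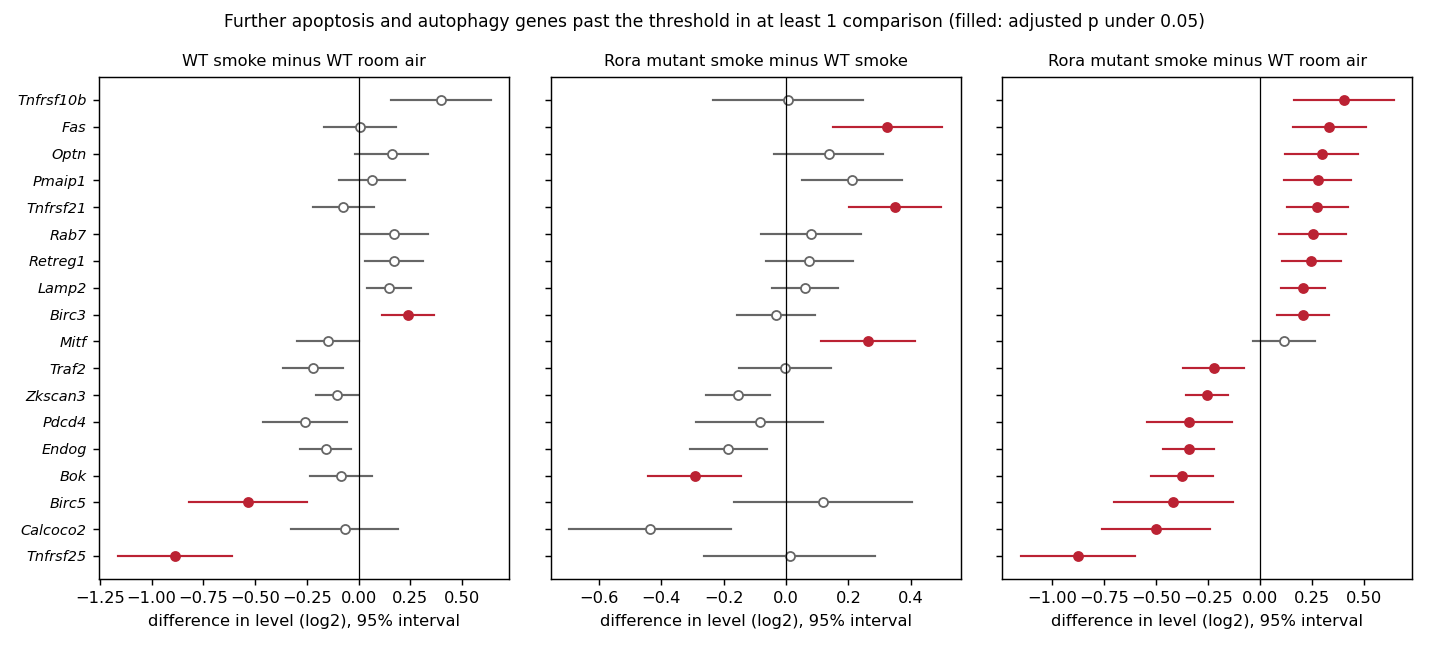
Differences in level (log2, x axis) with 95% intervals for 18 of the 19 genes of the wider list that passed in at least 1 comparison, where filled points have an adjusted p under 0.05. Tnfrsf25 lies near -0.89 and -0.88 in the comparisons with room air, and Tnfrsf21 and Fas lie to the right of 0 in mutant against WT smoke.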

How the data were processed

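Whole-lung RNA of 12 mice (100 ng labelled per array, per the labels) was measured on 3 slides of 4 arrays, and every slide held all 3 groups. The scans were read with Agilent Feature Extraction 9.5.3.1, per the submitters' processing notes. Per the file headers, the processed signal is a linear intensity that had been background-subtracted and detrended on its own array but not normalized across arrays; the spot mean and local background used by 1 alternative are intensities as scanned. The scanner flags in the deposited files are other values of 0 or 1. The authors' deposited value table holds log2 intensity and was used as an alternative (lowest correlation with the processed signal of an array 0.9995); its shared column median shows normalization between arrays.

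Control spots and 1389 spot values flagged as outliers were left out, and 43379 spots were averaged to 41174 probes. Each processed signal was divided by its array's 75th percentile and log2-transformed. A probe was kept if at least 4 arrays read it well above background and each group had 3 or more values (30191 probes), and the brightest kept probe stood for a gene. Of 80 probes of the 40 genes, 78 were kept. Every brightest probe of a member was well above background on all 12 arrays and none was saturated. Symbols were updated through RefSeq accessions and synonyms (Tfeb is listed under an older name in the files). Positions are those of the files, on mm8; promoter windows are RefSeq's on GRCm38.p6. The labels call the arrays of a group biological replicates. The replicate numbers were not taken as pairs, since the labels tie them to no shared origin and same-numbered arrays of different groups had deviations correlating from -0.097 to 0.224 (12 pairs).

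A mean per group was fitted on all 12 arrays in R 4.3.3 by limma 3.58.1 (functions lmFit and eBayes), with tables held in data.table version 1.17.8, two-sided, with Benjamini-Hochberg adjustment over all 19824 genes of a comparison, and over all 30191 probes where probes are given singly. The fit was tested on simulated data with known changes. Plots used matplotlib 3.10.9 in Python 3.11.15. The members and lists were chosen with earlier results of these data known. Values on every array are given for members that passed in any comparison and for the 3 with the smallest p in each. Of the wider list, the 8 genes with the smallest p among those that passed are named in each comparison, except 1 that is not reported here and stays in the counts. Cflar and Atg7 probes, and the motifs searched, were singled out after their values were seen. Alternatives were background correction, scaling, detection filter, probe choice, samples fitted, slide and replicate blocks, an intensity trend, the authors' table and leaving out each array.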

Additional observations from a re-analysis of the deposited data

Results flagged for a closer look

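For 7 of 120 gene and group combinations (5.83%), 1 of the 4 arrays lay far from the other 3, by Dixon's 95% limit on the gap as a share of the range of the group. Chance gives about 1 in 20 such groups, and no cause was tested. Of these, 3 involve WT smoke array 4: Sqstm1 read 6.242 there and 6.024 to 6.059 on the other WT smoke arrays (gap 0.843 of the range), Bnip3l, a mitophagy receptor, read 3.711 against 3.504 to 3.525 (0.897), and Casp2 read 3.159 against 2.914 to 2.943 (0.880). Bcl2l2 read 2.412 on WT smoke array 1 and 2.456 to 2.465 on the other arrays of that group (0.836). In room air, Bnip3 read 2.026 on array 3 against 2.096 to 2.101 (0.925), and Wipi1 read 1.289 on array 1 against 1.098 to 1.122 (0.875). Bcl2l11, which encodes BIM, read 0.712 on mutant smoke array 3 against 0.941 to 0.982 on the other mutant arrays (0.846).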

How the results depend on the processing

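The directions of the 7 member calls were the same under all 24 alternatives that kept the brightest probes or averaged them, but their side of the threshold was not. Bcl2 and Bnip3 in mutant smoke against room air passed under 23 of 24, Gabarapl1 under 19 and Casp9 under 10; in WT smoke Gabarapl1 passed under 14 and Bnip3 under 13, and Casp12 between the smoke groups under 9. With normexp background correction 0, 0 and 0 members passed in smoke against room air, mutant against WT smoke and mutant smoke against room air, with 53, 28 and 181 genes (963, 1198 and 3312 in the main analysis) and 0, 0 and 0 genes of the wider list; limma's unadjusted p under 0.05 had given 7, 4 and 13 members. In WT smoke, 1 member passed with quantile normalization, with the authors' table, with no detection filter, with the mean of the kept probes, with only the 2 groups fitted and with the slide as a fixed block, and 0 with a replicate block. Between the smoke groups, 0 members passed with the median of each array as the scale, with no filter, with only the 2 groups and with the slide block. With the replicate block 1 passed there: Casp12 was lost and Bcl2 gained (-0.26, adjusted p = 0.0339). Median scaling raised the count in mutant smoke against room air to 14 members (35%), 13 of them higher, and to 33 genes of the wider list (32.4%), beside 4567 genes in all (23%), and moved the share of higher calls among all genes from 47.5%, 41.1% and 39.9% to 63.8%, 57.9% and 69.5%; normexp moved the first to 75.5%. Normexp also moved the median of all genes between the smoke groups to 0.101 log2 units, beside which Casp12 stood at -0.22. With no filter 564 and 688 genes passed in the first 2 comparisons, and 2 and 11 of the wider list in the last 2. With only the 2 groups, 745 genes and 1 of the wider list passed between the smoke groups. The wider list gave 1 in WT smoke with the slide block (Tnfrsf25), and 1 (Tnfrsf25) and 2 (Tnfrsf21 and Bok) in the first 2 comparisons with the replicate block. The numbers were not taken as pairs, since the labels do not say that they mark a shared origin and not every same-numbered pair correlated over 0.1; 7 of 12 arrays nevertheless correlated best with their own number, a hint from the data, and arrays numbered 1, 2 or 3 shared a slide with their namesakes. Leaving out single arrays gave 0 to 2, 0 to 1 and 3 to 6 members, 554 to 961, 579 to 1143 and 2223 to 3226 genes, and 1 to 3, 1 to 3 and 9 to 18 of the wider list. Counts of genes moved by over 1.5 times without room-air array 2 (607) or 4 (554) or WT smoke array 2 (578), 3 (607) or 4 (615) in WT smoke, and without mutant array 4 (579) or WT smoke array 1 (627) or 3 (702) between the smoke groups. The other probes were chosen after seeing the data, and 1 reversed a direction: Bcl2 by its transcript variant 1 probe, 0.056 in mutant smoke against room air. The cause of these changes was not tested. Precision is limited by 4 arrays a group.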

Other observations

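The remaining genes of the wider list that passed in mutant smoke against room air are given here; they are outside the 8 with the smallest p and are named after their values were seen. Optn, which encodes the cargo receptor optineurin, rose by 0.30 log2 units (limma adjusted p = 0.0269) and Retreg1, a receptor for autophagy of the endoplasmic reticulum, by 0.25 (adjusted p = 0.0222). Rab7, a small GTPase of late endosomes and lysosomes, rose by 0.25 (adjusted p = 0.0362). On the apoptosis side, Pmaip1, which encodes the BH3-only protein NOXA, rose by 0.28 (adjusted p = 0.0247). The death receptor genes Tnfrsf21 and Tnfrsf10b rose by 0.27 (adjusted p = 0.0174) and 0.40 (adjusted p = 0.0272), the latter at levels near -4.70 in room air and -4.30 in the mutants. Birc3 rose by 0.21 (adjusted p = 0.0292). Birc5 fell by 0.42 (adjusted p = 0.0488), Pdcd4, a translation inhibitor, by 0.34 (adjusted p = 0.0277), and Traf2, an adaptor of TNF receptors, by 0.22 (adjusted p = 0.0413).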
